A study of Capra hircus with 12 samples.

Results

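The small RNAs described here are the unnamed sequences of embryonic cashmere goat skin that were lower at embryonic day 65 (E65) than at E45. They were taken from a table of small RNA rows, of which 151 carry a sheep miRNA name, 482 carry only a chromosome and a running number (such as chr18_7873), and 16 carry a contig or scaffold name. The 482 chromosome rows hold 426 distinct sequences. Values are in RPM, reads per 1000000 reads summed over all rows of a library. Rows of identical sequence were taken as 1 sequence. A sequence was included when its value at E45 was at least 20 RPM and (E45 + 1)/(E65 + 1) was at least 2. This gave 71 distinct sequences on 85 rows, which is 16.7% of the 426 distinct unnamed sequences and 36.0% of the 197 that reached 20 RPM at E45. The sequences were chosen by their values at E45 and E65, so the fall itself is given as a description and is not tested.

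The skin came from the mid flank of Inner Mongolia cashmere goat embryos at E45, E55 and E65. For small RNA sequencing the skin of 3 embryos of a stage was mixed and its RNA extracted as 1 pool, so there was 1 library per stage, and the spread between embryos is not known. No treatment or genetic change separated the pools, and age was the only labelled difference. The small RNA libraries ran on Illumina GAIIx and NextSeq instruments, and which ran on which is not given. An effect of instrument could therefore not be told apart from age. The RPM values correspond to 2455493 reads in the E45 library, 4125743 in the E55 library and 2344797 in the E65 library, and 1 read is 0.407, 0.242 and 0.426 RPM, respectively. Intervals given below are exact 95% intervals of the ratio of 2 read counts, which cover counting error only and compare these libraries, not the stages.

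A miRNA is cut from a hairpin precursor, is loaded into an Argonaute protein and guides it to mRNAs that pair with its seed, the bases 2 to 8 from the 5′ end. The targets are then repressed or degraded. Many vertebrate miRNAs are restricted to a tissue: miR-9 and miR-124 belong to neural cells, miR-206 and miR-133 to striated muscle, miR-122 to hepatocytes, miR-140 to cartilage, and miR-205 and the miR-200 family to epithelia, including the epidermis. No file pairs the unnamed rows with miRNA names. The names given in parentheses are those by which the conserved sequences are generally known. They were assigned from background knowledge after the values had been seen, for 42 of the 71 sequences. For 34 of the 42, the goat RefSeq gene table (assembly ARS1.2) lists a gene of that name on a chromosome of the sequence's rows. A match to any of the rows was enough where a sequence had several. For 5 the RefSeq table gives no chromosome, 3 are not listed, and 0 were listed on another chromosome only.

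The sequences with the largest ratios of E45 to E65 and the pair with the highest E45 values are printed first, as the upper ends of the ratios and of the levels. They are given as deposited, 5′ to 3′ with T for U, and the capitals mark the seed.
chr24_10426 (miR-122): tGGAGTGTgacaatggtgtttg
chr14_6489 (miR-124): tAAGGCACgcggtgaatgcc
chr21_9118 (miR-9): tCTTTGGTtatctagctgtatga
chr26_11027 (miR-202): tTCCTATGcatatacttcttt
chr11_5630 (miR-219): aGAATTGTggctggacatctgt
chr16_7289 (miR-135b): tATGGCTTttcattcctatgtga
chr3_1333 (miR-137): tATTGCTTaagaatacgcgtag
chr5_2736: gACAAGAGggggacttccctggt
chr18_7986 (miR-371): aCTCAAACtgtgggggcactt
chr2_1118 (miR-153): tTGCATAGtcacaaaagtgatc
chr18_7873 (miR-140): aCCACAGGgtagaaccacggac
chr23_9943 (miR-206): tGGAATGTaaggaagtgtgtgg

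The seeds of the 71 sequences were nearly all different, with 64 seeds in all. Of these, 7 were shared by a pair of falling sequences, and none by 3 or more. The pairs are shown because miRNAs with one seed can pair with the same target sites.
chr4_1916 (miR-196b): tAGGTAGTttcctgttgttggg
chr19_8366 (miR-196a): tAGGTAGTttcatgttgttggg
chr22_9712 (miR-135a): tATGGCTTtttattcctatgtga
chr29_11655 (miR-192): cTGACCTAtgaattgacagcc
chr16_7319 (miR-215): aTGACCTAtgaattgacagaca
chr12_5778 (miR-18a): tAAGGTGCatctagtgcagatag
chrX_12832 (miR-18b): tAAGGTGCatctagtgcagt
chr12_5785 (miR-92a): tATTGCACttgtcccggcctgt
chrX_12839 (miR-363): aATTGCACggtatccatctgcg
chrX_13137: tCAAATGCtcagactcctgtggt
chrX_13141: tCAAATGCtcagactccttggtg
chr16_7131: cACATGGAgttgctgttacaat
chr29_11455: cACATGGAgttgctgttaca
miR-135b, printed above, is the seed partner of miR-135a. The miR-196 sequences differ at 1 of 22 bases, the miR-135 sequences at 1 of 23, and chr29_11455 is the first 20 bases of chr16_7131. How reads were assigned between such close sequences is not given in the sources used here, so the split of reads within these pairs is uncertain.

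Together the 71 sequences held 66285 RPM at E45, 47491 RPM at E55 and 15372 RPM at E65. This was 6.95%, 4.94% and 1.57% of the summed RPM of all distinct sequences of each library. Their median level was 138.1 RPM at E45 (range, 20.4 to 15551), 41.5 RPM at E55 and 20.9 RPM at E65. The first 3 by level at E45 (miR-140, miR-206 and miR-9) made up much of the sum, and without them it was 35013, 21309 and 11038 RPM. At E65, 5 of the sequences were at or under 3 reads, and 2 of these were at 0.

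**Figure D1:**
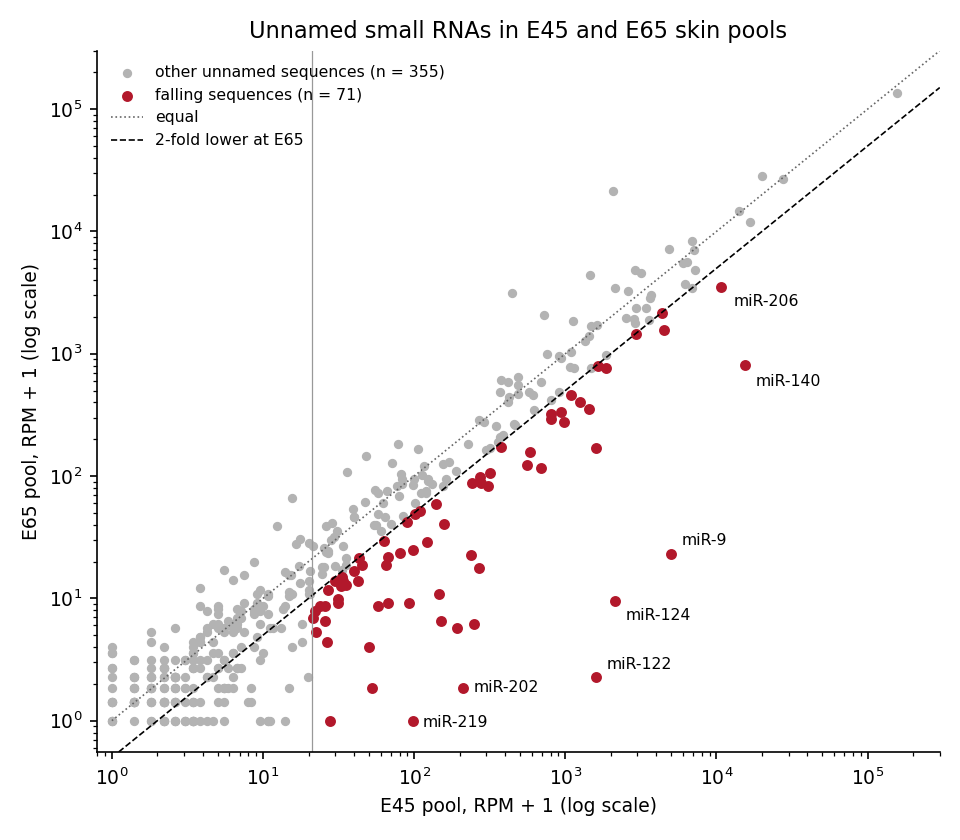
RPM + 1 in the E45 pool (x axis, log scale) against the E65 pool (y axis, log scale) for the 426 distinct unnamed sequences, with 1 library per axis. Red points are the 71 falling sequences, grey points the others, the dotted line marks equal values, the dashed line a 2-fold lower value at E65 and the vertical line 20 RPM at E45; most red points lie close to the dashed line, and a few that include miR-122, miR-124, miR-9 and miR-202 lie far below it.

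Most of the falls were small. The ratio (E45 + 1)/(E65 + 1) had a median of 3.13, and it was under 4 in 46 sequences, between 4 and 10 in 9, between 10 and 100 in 12 and above 100 in 4. On the log2 scale of RPM + 1, the median E65 vs. E45 was -1.64 for the falling sequences, -0.17 for the other unnamed sequences that reached 20 RPM at E45, and -0.45 for all 426. The log2 scale with 1 RPM added understates the fall of sequences with low values. In the opposite direction, 9 unnamed sequences (2.11% of the 426) with at least 20 RPM at E65 rose by the same ratio, and of the 150 distinct sheep-named sequences 20 (13.3%, or 17.4% of those that reached 20 RPM at E45) met the rule for a fall.

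The limits cut through a continuous range of values. Just inside the ratio limit were chr28_11218 (miR-1296), with 42.0, 31.0 and 20.5 RPM at E45, E55 and E65, and chrX_13199 (miR-532), with 4331, 4611 and 2159 RPM. Just outside it were chr4_2325, with 6938, 1308 and 3471 RPM, and chr16_7345, with 32.2, 16 and 16.2 RPM. At the limit of 20 RPM, chr13_6336 (20.4, 9.45 and 5.97 RPM) and chr18_7991 (21.2, 9.21 and 6.82 RPM) were inside, whereas chr27_11058 (18.7, 7.76 and 1.28 RPM) and chr17_7645 (17.1, 13.6 and 5.12 RPM) were outside.

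The fall was dated by splitting it at E55. The E45-E55 step was the larger in 45 sequences and the E55-E65 step in 26. No such count was made over the 197 that reached 20 RPM at E45, so nothing is read from it. The median log2 ratio of RPM + 1 was -1.14 for E55 vs. E45 and -0.75 for E65 vs. E55. For the other unnamed sequences that reached 20 RPM at E45, these medians were -0.39 and 0.21. A lower median at the first step was thus not particular to the falling sequences. Because E45 and E65 were chosen to differ, the rule sets a least size for the sum of the steps, and the division between them is described without a test.

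Of the 71 sequences, 43 were already at least 2-fold lower at E55 than at E45, and 24 fell at least 2-fold from E55 to E65. Among the 197 unnamed sequences that reached 20 RPM at E45, such falls were seen in 28.4% for E55 vs. E45 and in 12.7% for E65 vs. E55. The rule used E45 and E65, so nothing is read from these shares. A total of 8 sequences fell at least 2-fold at both steps and 12 at neither. No share over the 197 was counted for these numbers, so nothing is read from them. The fall exceeded counting error at the first step in 62 sequences, at the second in 44, and at both in 35. For all 197, the shares were 71.1%, 34.5% and 23.4%, respectively, and they too are given as description only.

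The course was stepwise, with E55 between E45 and E65 or equal to one of them, in 52 sequences (background, 38.6% of the 197). In 7 sequences E55 was above E45, which was beyond counting error in all 7 (background for a rise of any size, 17.3% of the 197). In the remaining 12, E55 was below E65, beyond counting error in 5, namely miR-135a, miR-708, miR-7, miR-20b and chr1_247. Among the 197, E55 was below both E45 and E65 in 44.2%, beyond counting error against E65 in 30.5%. The rule chose sequences with a low E65, so nothing is read from these shares.

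**Figure D2:**
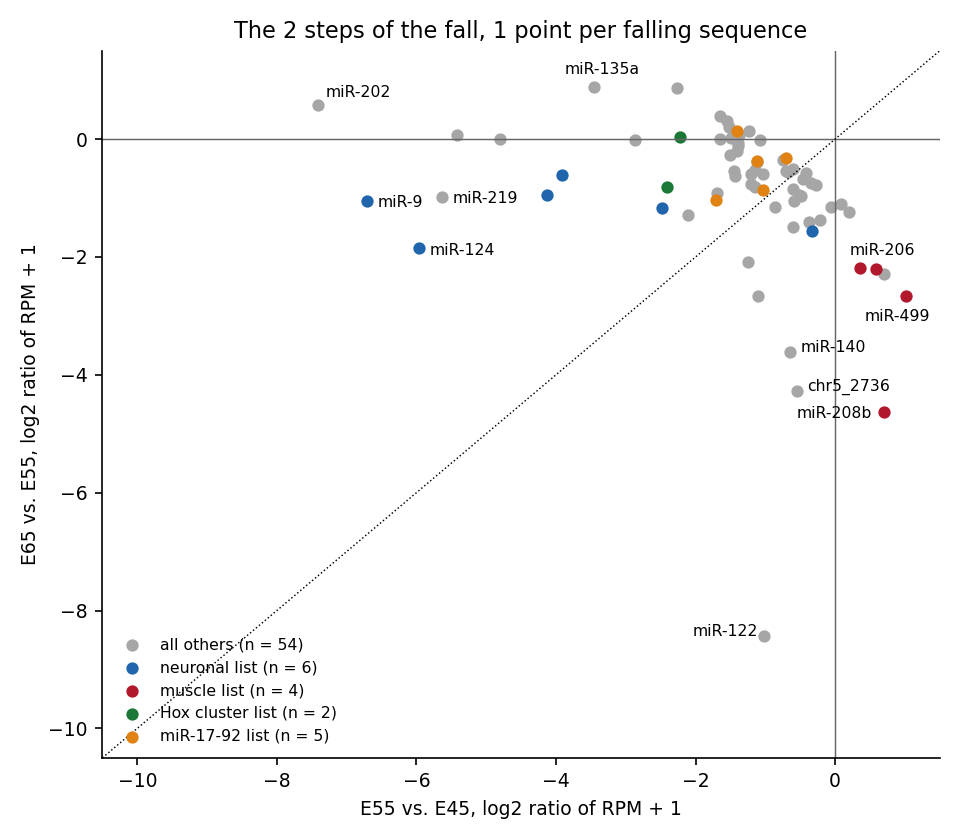
Log2 ratio of RPM + 1 for E55 vs. E45 (x axis) against E65 vs. E55 (y axis), 1 point per falling sequence (n = 71), coloured by the list to which the miRNA name belongs. Points above the dotted line fell more from E45 to E55 (45 sequences) and points below it fell more from E55 to E65 (26 sequences); the neuronal list lies mostly to the left and the muscle list to the right of the zero line of the x axis.

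Several of the largest early falls were in miRNAs known from neural tissue. miR-9, which acts in neural progenitors, is read from one sequence found on 4 chromosomes (21, 22, 3 and 7). Its level was 4995 RPM at E45, 46.8 RPM at E55 and 22.2 RPM at E65. The fall was thus 107-fold by E55 (interval, 92.6 to 123.7) and a further 2.11-fold by E65 (1.55 to 2.92). miR-124, an abundant miRNA of mature neurons and here found on chromosomes 14 and 8, had 2144, 33.5 and 8.53 RPM. It was 64.1-fold lower at E55 (54.1 to 76.5) and 251-fold lower at E65 (163 to 411.9) than at E45.

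miR-137, a regulator of neuronal differentiation, had 191, 9.94 and 4.69 RPM in the E45, E55 and E65 pools. miR-153, which acts at synapses, had 149, 8.97 and 5.54 RPM. miR-138, which is enriched in brain, had 49.3, 8.0 and 2.99 RPM. All 3 had lost most of their level by E55. The step from E55 to E65 was beyond counting error in miR-137 (2.12-fold, 1.07 to 4.57) and miR-138 (2.68-fold, 1.17 to 7.18) and not in miR-153 (1.62-fold, 0.840 to 3.32).

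miR-128, the other neural miRNA of the list, had another course, with 582, 461 and 156 RPM. It fell 1.26-fold by E55 (1.18 to 1.35) and 2.96-fold from E55 to E65 (2.64 to 3.31). In the neuronal list of 9 names, 8 names were found, each as 1 sequence, and miR-132 was not found. All 8 were lower at E65, 7 of them at least 2-fold (6 with median scaling), and 6 were among the 71. Over all 586 distinct sequences, 394 were lower at E65 and 159 at least 2-fold lower. The remaining 2 were miR-129 (19.1, 12.4 and 12.8 RPM) and the sheep-named miR-218a (3425, 1072 and 1340 RPM). The list's median log2 ratio was -3.20 for E55 vs. E45 and -0.99 for E65 vs. E55, beside -0.25 and -0.11 over all distinct sequences.

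The 5 neuron markers (miR-9, miR-124, miR-128, miR-137 and miR-138) were all found and were all among the 71 sequences. Of all 426 distinct unnamed sequences 16.7% were among them, and of those that reached 20 RPM at E45 36.0% were. Their summed level was 7961 RPM at E45, 559 RPM at E55 and 194 RPM at E65, with miR-9 as the most abundant at E45. In such pooled tissue, fewer cells of a type and less RNA per cell cannot be told apart. The part of neural tissue in the fall was not tested.

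miR-219, which is enriched in brain and in oligodendrocytes, was on chromosome 11 and outside the list. It had 96.5 RPM at E45, 0.97 RPM at E55 and 0 at E65. With 3 reads put in place of the 0, it was 75.4-fold lower at E65 than at E45. With counting error at both stages, it was at least 60.9-fold lower. miR-135b, with 248, 4.85 and 5.12 RPM, fell 51.2-fold by E55 (32.9 to 84.5), and the values of E55 and E65 differed by less than counting error. Its seed partner miR-135a, found on chromosomes 22 and 5, had 688, 61.6 and 115 RPM. It was lowest at E55, with an E55 to E65 ratio of 0.535 (0.449 to 0.637).

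miR-202, which is best known from the gonads, was nearly confined to the E45 library, with 211 RPM there, 0.24 RPM (1 read) at E55 and 0.85 RPM (2 reads) at E65. The ratio of E45 to E65 was 248 (68.0 to 2044). miR-371, of a cluster expressed in early embryonic cells, was detected only at E45, with 26.9, 0 and 0 RPM. With 3 reads put in place of each 0, it was 37.0-fold lower at E55 and 21.01-fold lower at E65. With counting error at both stages, it was at least 29.2-fold and 16.6-fold lower, respectively. miR-302, the other miRNA found from the list of embryonic miRNAs, was under the E45 limit and had the same course (10.2, 0 and 0 RPM).

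The 4 muscle miRNAs among the 71 sequences fell after E55, from a value above that of E45. miR-206, a skeletal muscle miRNA on chromosome 23, had 10726 RPM at E45, 16161 RPM at E55 and 3500 RPM at E65. Its E45 to E55 ratio was 0.664 (0.654 to 0.673) and its E55 to E65 ratio 4.62 (4.51 to 4.73). miR-133b, whose row lies 2 numbers further on the same chromosome, moved in the same way, with 985, 1261 and 275 RPM. 20 of its bases are identical with the sheep-named miR-133, which rose and fell as well (3106, 6623 and 2013 RPM), so reads of the miR-133 sequences may not be fully separated.

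miR-499, encoded in a slow myosin heavy chain gene, had 1246, 2519 and 399 RPM. Among the 71 it had the largest rise before the fall, with an E45 to E55 ratio of 0.495 (0.475 to 0.515), and then fell 6.31-fold (5.90 to 6.75). miR-208b, which also lies in a slow myosin gene, had 267, 436 and 16.6 RPM and fell 26.2-fold from E55 to E65 (19.1 to 37.0). These 4 muscle sequences were 4 of the 7 with E55 above E45. The other 3 were miR-532, miR-660 and chr4_2156, a sequence without a name that had 24.8, 41.2 and 7.68 RPM.

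The muscle list held 7 sequences, and all of them were lower at E65 than at E45 in RPM, 5 at least 2-fold (394 and 159 of all 586 distinct sequences, respectively). miR-1 was higher at E65 when libraries were scaled to their median. Its 3 sequences outside the 71 were miR-1 (5973, 20686 and 5524 RPM), miR-133 and miR-208a (3.26, 1.70 and 0 RPM). The median log2 ratio of the list was 0.71 for E55 vs. E45, -2.19 for E65 vs. E55 and -1.64 over both. The 4 muscle markers (miR-1, miR-133, miR-133b and miR-206) summed to 20790, 44731 and 11312 RPM, with miR-206 as the most abundant at E45. The muscle markers were thus highest in the E55 pool, where the sum was more than at E45 and at E65. The part of muscle in the falls was not tested.

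**Figure D3:**
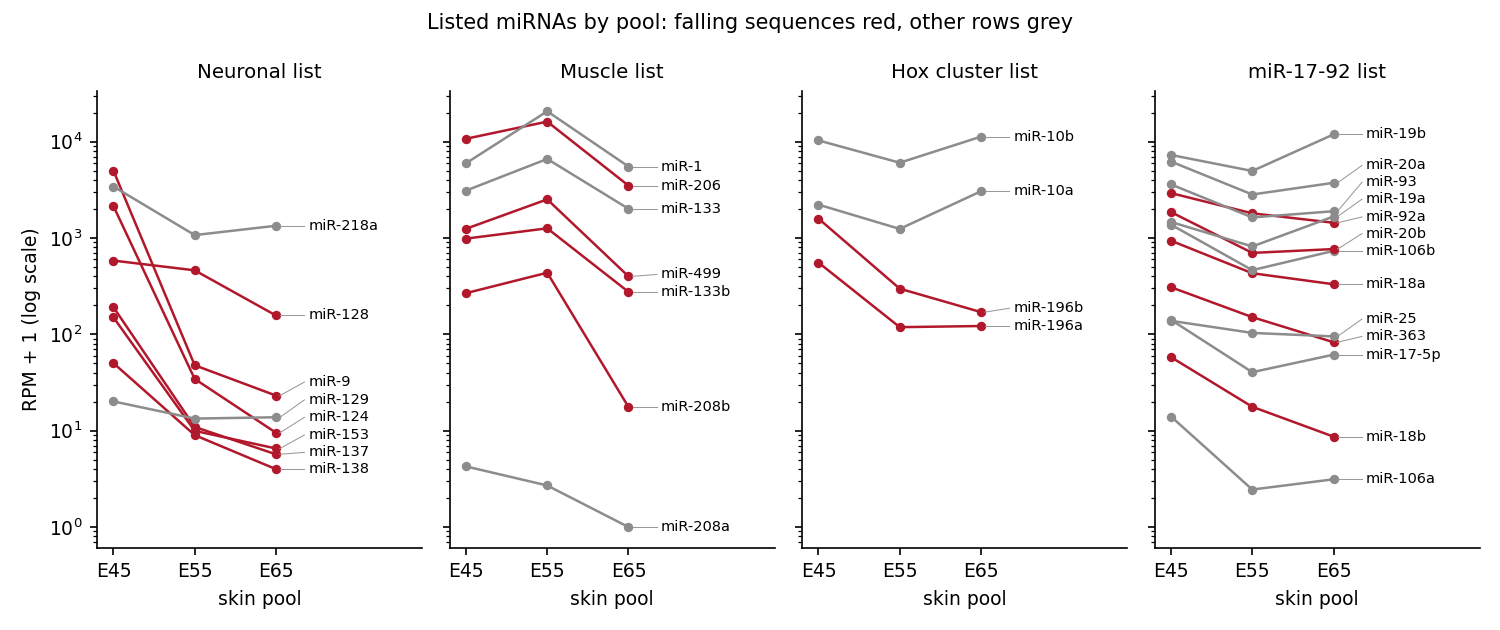
RPM + 1 (log scale) in the E45, E55 and E65 pools for each sequence of the neuronal, muscle, Hox cluster and miR-17-92 lists, 1 line per sequence and 1 library per stage. Red lines are falling sequences and grey lines other rows; 6 of the 8 neuronal lines drop steeply before E55, miR-128 and miR-129 less so, most muscle lines peak at E55, and miR-10a and miR-10b stay high while miR-196a and miR-196b fall.

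The most abundant falling sequence at E45 was miR-140 on chromosome 18, a miRNA of chondrocytes, with 15551, 9974 and 813 RPM. It fell 1.56-fold by E55 (1.54 to 1.58) and 12.3-fold from E55 to E65 (11.7 to 12.9). miR-122, the main miRNA of hepatocytes, on chromosome 24, had 1599, 787 and 1.28 RPM. The last value is 3 reads, and the ratio of E55 to E65 was 615.04 (210 to 2985). No other marker of liver was on the lists, and the part of liver in the fall was not tested. chr5_2736, a sequence with no name assigned, also fell late, with 51.3, 34.7 and 0.85 RPM (2 reads at E65), an E55 to E65 ratio of 40.8 (11.0 to 339). Of the 29 sequences with no name, 10 had E55-E65 as the larger step. The next largest ratios of E55 to E65 among these 10 were 6.84 (4.47 to 11.0) for chr24_10371 (145, 67.1 and 9.81 RPM), 5.36 (3.30 to 9.28) for chr4_2156 and 4.67 (2.89 to 7.96) for chr11_5276 (91.2, 37.8 and 8.10 RPM).

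Markers of other cell types took different courses in the same libraries. Of 7 epidermal names, 6 were found and miR-203 was not. All 6 were higher at E65 than at E45 (188 of all 586 distinct sequences were), although miR-200a had 3 reads or fewer in each library (0.41, 0.48 and 1.28 RPM). Their summed level was 2667, 6585 and 25582 RPM. The most abundant was miR-205, an epithelial miRNA, with 2057, 5576 and 21553 RPM. The endothelial miR-126 had 4750, 4656 and 4375 RPM, and of the blood cell miRNAs, miR-223 had 7.33, 3.88 and 0.85 RPM and miR-150 had 6.11, 8.24 and 13.7 RPM, together 13.4, 12.1 and 14.5 RPM. None of the 3 erythroid names (miR-144, miR-451 and miR-486) was found among the rows. miR-7, the endocrine marker that was found, was among the 71, with 801, 277 and 321 RPM, whereas miR-375 was not found.

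RPM values are shares of the reads on the rows of a library, so a rise of some sequences lowers the values of all others. A scaling to the median of the sequences, with log2 offsets of 0.24 for E45, -0.07 for E55 and -0.20 for E65 taken off, raised E65 and E55 against E45. After it 51 of the 71 sequences were at least 2-fold lower at E65 than at E45, and 47 met the rule in full. The number with E55 above E45 was then 10. The direction of E65 vs. E45 turned for miR-1 and for miR-126, which were then higher at E65, and for no other marker of neurons, muscle, epidermis, blood cells or liver.

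The Hox cluster list was divided. miR-196b on chromosome 4 and miR-196a on chromosomes 19 and 5 are encoded among the posterior Hox genes. The first had 1590, 297 and 169 RPM and the second 555, 118 and 121 RPM. Both fell mainly by E55, 5.35-fold (5.02 to 5.71) and 4.71-fold (4.25 to 5.24), respectively. miR-10a and miR-10b, which lie further forward in the Hox clusters and carry sheep names, were not lower at E65. They had 2220, 1243 and 3057 RPM and 10310, 6049 and 11283 RPM, respectively, with their lowest value at E55. miR-615 was not found.

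miR-192 and miR-215 share a seed and are known from the gut, liver and kidney. miR-192 on chromosome 29 had 1429, 789 and 354 RPM, and miR-215 on chromosome 16 had 238, 54.3 and 21.8 RPM. Both fell at each step. miR-194, which vertebrates encode beside miR-192 and miR-215 and which carries its sheep name here, also fell, with 1519, 667.8 and 423 RPM. Its sequence is shown because 2 falling sequences without a name are its complement.
oar-miR-194: tgtaacagcaactccatgtgga
chr16_7131 and chr29_11455, printed above as a seed pair, are reverse-complementary to it over 20 bases. They had 34.6, 12.6 and 11.9 RPM and 30.1, 8.97 and 8.96 RPM, and both fell from E45 to E55, whereas their values at E55 and E65 differed by less than counting error. Whether the reads came from the opposite strand is not known, and since one holds the other whole, they may share reads.

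The miR-17-92 cluster and its paralogues, which act in cell proliferation, were represented by 13 sequences, of which 5 were among the 71. miR-92a, found on chromosomes 12 and X, had 2927, 1804 and 1440 RPM. miR-20b on chromosome X had 1859, 700.0 and 767 RPM, and it shares its seed with the sheep-named miR-17-5p, miR-106a and miR-106b. miR-18a had 937, 430 and 331 RPM, and its seed partner miR-18b had 57.0, 16.7 and 7.68 RPM. miR-363, the seed partner of miR-92a, had 307, 150 and 81.9 RPM. Of the 13 sequences 11 were lower at E65, 7 of them at least 2-fold (4 with median scaling), whereas miR-19a and miR-19b were higher. Among all 586 distinct sequences, 394 were lower and 159 at least 2-fold lower. The median log2 ratio of the list was -1.14 for E55 vs. E45 and 0.21 for E65 vs. E55.

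In the remaining lists, sheep-named rows were not eligible for the 71. miR-301b (242, 85.8 and 87.4 RPM) was the falling sequence among 5 of the list of miR-130 and related miRNAs, and miR-483, from an intron of Igf2 (316, 272 and 104 RPM), was that among 6 of the growth clusters. None of the 71 was among the 5 sequences of the miR-15/16 list or the 9 of the let-7 list, of which 7 carry sheep names. All 88 sequences of the DLK1-DIO3 list carry sheep names, so that none could be among the 71. The let-7 list, whose members rise as tissues mature, had a median log2 E65 vs. E45 of 0.74, with 7 of 9 higher (8 with median scaling, median 1.18). The DLK1-DIO3 list, an imprinted cluster, had a median of -0.54, with 69 of 88 lower (51 with median scaling, median -0.12) and 20 at least 2-fold lower (12 with median scaling). Over all 586 distinct sequences the median was -0.42, with 394 lower and 159 at least 2-fold lower.

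Other abundant sequences fell moderately. miR-340 on chromosome 7 had 4473, 1698 and 1574 RPM and had nearly finished its fall by E55 (2.63-fold, 2.56 to 2.71, then 1.08-fold, 1.04 to 1.12). miR-708 on chromosome 29 had 1096, 350.0 and 459 RPM, with its lowest value at E55. chr1_247 was also lowest at E55, with 31.8, 5.82 and 11.5 RPM, an E55 to E65 ratio of 0.506 (0.279 to 0.909).
chr1_247: aTAAACCTgaacgaactttttg
This sequence is shown because it holds the letters GAACTTTT, which were noticed in several falling sequences and then searched for on both strands (AAAAGTTC on the other). They were in 4 of the 71 sequences (5.63%; chr6_3256, chr5_2546, chr11_5295 and chr1_247), in 16 of the others that reached 20 RPM at E45 (12.7%) and in 55 of all 426 (12.9%).

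The 29 sequences with no name assigned were mostly low. Their median E45 was 44.0 RPM, against 344 RPM for the 42 named ones, and their summed level at E45 was 2686 RPM against 63598 RPM. The median log2 E65 vs. E45 was -1.50 without and -1.89 with a name. In size the 71 sequences were like miRNAs: the median length was 22 bases (18 to 24), and 64 (90.1%) were 21 to 23 bases long, against 103 (81.7%) of the other unnamed sequences that reached 20 RPM at E45. The first base was T in 34 (47.9%), against 51 (40.5%) of those others, A in 17 against 44, C in 16 against 17 and G in 4 against 14. Median GC content was 45.5% in both.

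The falling sequences were spread over 27 of the 30 chromosomes in the row names, with none from chromosomes 15 (0 of 4 sequences at 20 RPM or more at E45), 20 (0 of 2) and 27, which had no such sequence. They made up 36.0% of unnamed sequences at 20 RPM or more at E45 in all, and 15 of 35 (42.9%) on chromosome X. On the 21 chromosomes with at least 5 such sequences, the share was above 36.0% on 11. The 5 highest were those of chromosomes 29 (5 of 5), 11 (5 of 6), 22 (4 of 6), 18 (4 of 8) and 4 (4 of 9), and the 5 lowest those of chromosomes 25 (1 of 6), 17 (1 of 5), 19 (2 of 10), 3 (2 of 9) and 16 (3 of 13). These numbers are small, and neighbouring sequences may come from 1 transcript, so the shares are not tested. A sequence found on several chromosomes was counted on each. Of the 71, 11 (15.5%) were on more than 1 row, against 10 (7.94%) of the other unnamed sequences that reached 20 RPM at E45.

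**Figure D4:**
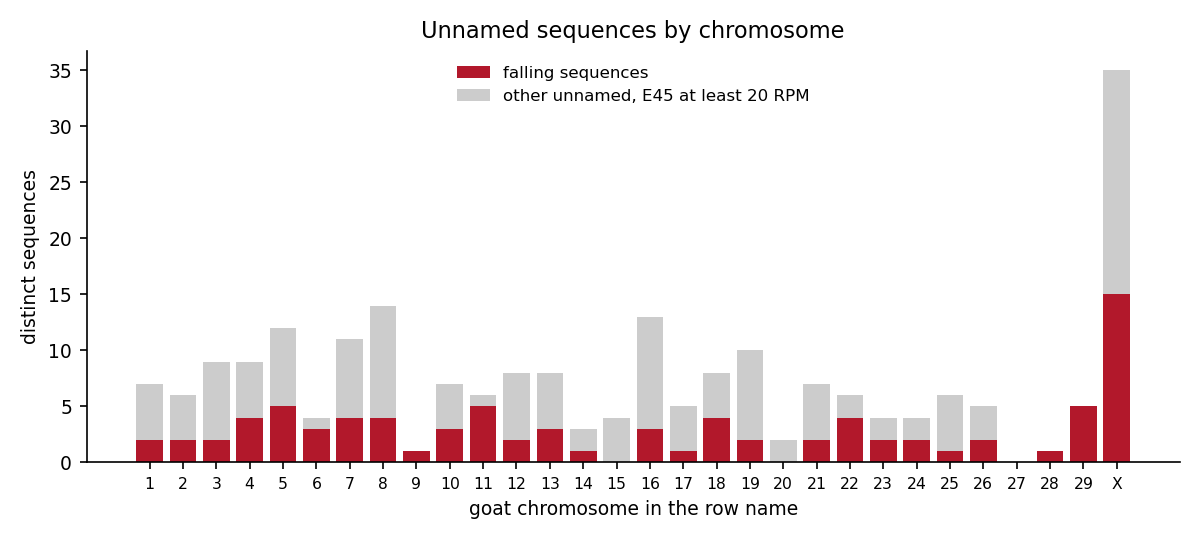
Number of distinct unnamed sequences with at least 20 RPM at E45 (y axis) by the goat chromosome in the row name (x axis), with falling sequences in red and the others in grey. Chromosome X holds the most of both (15 of 35 falling), all 5 on chromosome 29 fell, and a sequence found on several chromosomes is counted in each bar.

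The falls of chromosome X were moderate. The 15 sequences, of which 13 were on X alone, had a median log2 E65 vs. E45 of -1.28 and ratios of E45 + 1 to E65 + 1 between 2.01 and 6.68. The 56 sequences not on X had a median of -1.81, and all 16 with a ratio of at least 10 were among them. On X the summed level was 12152, 9708 and 5613 RPM, and the larger step was E45-E55 in 10 of the 15 (45 of all 71).

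The numbers in the row names run on along each chromosome but are not positions, so neighbours were found by number only. Within 10 numbers of each other there were 12 neighbouring pairs of falling sequences. On X, miR-18b, miR-20b, miR-92a and miR-363 are known as 1 cluster. From E45 to E55 they fell 3.41-, 2.66-, 1.62- and 2.049-fold, respectively.

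Further along X, miR-660, chrX_13198 and miR-532 had E55-E65 as the larger step. miR-660 had 1641, 1884 and 796 RPM and miR-532 had 4331, 4611 and 2159 RPM, both highest at E55, whereas chrX_13198 fell at each step, with 271, 177 and 97.7 RPM. miR-217 and miR-216b on chromosome 11, a cluster known from pancreas, had 26.1, 24.97 and 10.7 RPM and 41.5, 27.4 and 12.8 RPM. The seed pair chrX_13137 (88.8, 41.5 and 40.9 RPM) and chrX_13141 (30.1, 9.94 and 8.10 RPM), 4 numbers apart, fell from E45 to E55, and their values at E55 and E65 differed by less than counting error. The larger step was thus E45-E55 in both partners of the X pair and E55-E65 in both of the chromosome 11 pair. On chromosome 29 the larger step differed between neighbours: it was E45-E55 for chr29_11650 (25.7, 7.27 and 3.41 RPM) and E55-E65 for miR-192, 5 numbers away.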

How the data were processed

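The authors' small RNA libraries were made with a gel-cut small RNA kit and sequenced on Illumina GAIIx and NextSeq instruments. Which library ran on which is not given in the sources used here, nor is the genome build, and the submitters' processing notes name Bowtie. The deposited values are RPM, called TPM by the authors: each column summed to about 1000000, with rows of identical sequence counted each time (4.65%, 3.95% and 2.29% of the E45, E55 and E65 totals). Of the values up to 20 RPM (281, 319 and 310), 100% were whole multiples of 1 read within 0.1 read. This gave the reads summed over the rows of each library. No count test was possible with 1 library a stage, and ratio intervals are exact conditional (Clopper-Pearson) intervals of those reads. The recovery of reads and the rule for a fall were tested on simulated data, and the interval code was checked on a fixed example only.

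The members, the miRNA lists and the cell type markers were chosen with earlier results of these data known. The rule for named sequences took the 10 with the highest E45, the 10 with the largest ratio, the 3 with the largest share of the fall in each step, and those next to the limits (22 falling sequences by levels, ratios and steps). Seed partners, list members and neighbours were added after their values were seen. The rule was to take names from a table, but no table of mature miRNAs was used here, so family names come from background knowledge, with only the chromosome compared with RefSeq, and so do the list counts. The test of host genes in the mRNA libraries was not run, because the identifiers of the deposited RPKM table were paired with no symbol and no position, and that table was not used. Alternatives were other limits, a pseudocount of 10, median scaling, a mean of at least 50 RPM and every row counted. Python 3.11.15, numpy 2.4.6, pandas 2.3.3, scipy 1.17.1 and matplotlib 3.10.9 were used.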

Additional observations from a re-analysis of the deposited data

How the results depend on the processing

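The number of falling sequences was 71 by the rule, 42 with a ratio of at least 3 and 47 with median scaling. It was between 50 and 104 under the other alternatives, of which counting repeated sequences once in the total (72) was chosen after seeing the data. So was a counting interval above 1 (71), which uses the values of the rule and is no check of it. With median scaling no sequence was added, and the largest ratio among the 24 lost was 4.29 (chr8_3964). Its E45 value of 21.6 RPM went under the limit of 20 RPM when scaled, so it was lost by level and not by ratio. Of 26 sequences with the larger step after E55, 17 were left among the 42 with a mean of at least 50 RPM, where fewer sequences were counted. The median E55 vs. E45 of -1.14 became -0.84 with median scaling. For the 22 sequences of the naming rule, E65 vs. E45 moved by more than the counting error under a pseudocount of 10 in 10 and under median scaling in 11. miR-371 went from -4.80 to -1.88 with the pseudocount. At E55, 10 sequences instead of 7 were above E45 with median scaling, which also turned the direction of E65 vs. E45 for list rows outside the 71, 18 of them in the DLK1-DIO3 list.

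No paired analysis was possible because each stage had 1 pooled small RNA library, leaving out a library was not possible for the same reason, and the spread between embryos was not measured. The alternatives for host genes were not run. At E65, 5 of the sequences had 3 reads or fewer, so the size of their fall is known only within wide counting intervals.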
